A study of Homo sapiens with 9 samples.

Results

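The integrin subunits described here are ITGB4 and the 9 other subunits ITGA6, ITGB1, ITGA2, ITGA3, ITGA5, ITGAV, ITGB5, ITGB6 and ITGB8, measured in SKOV3 cells. Each was taken from the probe set that the platform annotation pairs with that gene and no other, and each had exactly 1 such probe set, so the 10 genes are 10 of the 14215 genes with a probe set of their own. ITGB4 was chosen by its measured difference between Ac-4-deoxy-GlcNAc and untreated cells, so that difference is given as a description with no test. The 9 others were added by name, as subunits found in epithelial cells. The set was made with earlier results of these arrays known.

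SKOV3 is an established human ovarian tumour cell line, grown here in flasks, with 1 array for each of 9 flasks. Of these, 3 received 50 µM peracetylated 4-deoxy-GlcNAc (Ac-4-deoxy-GlcNAc), 3 received 50 µM peracetylated GlcNAc (Ac-GlcNAc) and 3 were untreated, all for 3 days. GlcNAc is an amino sugar that cells build into many glycans, the acetyl groups let it cross membranes, and the analog lacks the hydroxyl group at carbon 4 and with it the acetyl group at that position. The sources used here describe the controls only as untreated and name no vehicle, and the line stands for 1 tumour.

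Integrins are cell surface receptors made of an alpha and a beta chain, which bind matrix proteins outside the cell and adaptor proteins or the cytoskeleton inside it. ITGB4 pairs with ITGA6 alone, binds laminin and anchors keratin filaments at hemidesmosomes, the rivets of epithelia to their basement membrane. ITGB1 pairs with many alpha chains, among them ITGA2 (collagen), ITGA3 and ITGA6 (laminins) and ITGA5 (fibronectin). ITGAV pairs with ITGB5, ITGB6 and ITGB8, and the pairs with ITGB6 and ITGB8 release active TGF-beta from its latent complex. All of these chains are glycoproteins.

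The labelled cell type was set against its markers first. Of 12 measured epithelial and ovarian tumour markers, 11 lay at or above the median level of all probe sets, and ERBB2, whose gene is amplified in this line, lay at the 99.8th percentile. All 4 mesenchymal markers, VIM, CDH2, FN1 and ZEB1, were above the 75th percentile, and 0 of 4 leukocyte and 0 of 3 endothelial markers reached the median. With Ac-4-deoxy-GlcNAc, the epithelial markers MUC1, KRT19 and KRT7 fell by 0.72, 0.49 and 0.46 on the log2 scale and CDH1 rose by 0.45 (limma adjusted p from 0.00101 to 0.0287). These were 3 lower and 1 higher of 12, beside 5.64% and 5.38% of all probe sets. PECAM1, 1 of the 3 endothelial markers, and the leukocyte marker ITGB2 were also called higher, by 0.41 and 0.38 (limma adjusted p = 0.0178 and 0.0232). MUC1 was the 1 epithelial marker called with Ac-GlcNAc too, beside 0.442% of all probe sets (7.92 against 8.47 in untreated cells, limma adjusted p = 0.0299). Array medians lay between 6.58 and 6.65. Untreated replicate 2 stood apart: its probe sets had an SD of 1.92, and those of the other arrays had SDs of 2.07 to 2.18.

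With Ac-4-deoxy-GlcNAc, ITGB4 stood 2.13-fold below its level in untreated cells. Its log2 level was 9.06, 9.10 and 9.22 with Ac-4-deoxy-GlcNAc, 9.94, 9.99 and 9.79 with Ac-GlcNAc, and 10.28, 10.19 and 10.18 in untreated cells (replicates 1 to 3). The 3 groups did not overlap, and the Ac-GlcNAc arrays lay between the other groups but closer to untreated. Group means were 9.13 ± 0.08, 9.90 ± 0.11 and 10.22 ± 0.05 (SD, n = 3 each). The difference of Ac-4-deoxy-GlcNAc from untreated was -1.09 (SE 0.09), the value by which the gene was chosen, and 17 of 17859 probe sets (0.0952%) were at least as far below 0. In bulk RNA, fewer cells that express a gene and less RNA per cell cannot be told apart.

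ITGB4 was also lower with the analog than with Ac-GlcNAc, at matched dose and time. That difference was -0.78 (SE 0.09, 95% interval -0.98 to -0.58, limma adjusted p = 0.00102), a 1.72-fold difference, and all 3 Ac-4-deoxy-GlcNAc arrays lay below all 3 Ac-GlcNAc arrays. Between Ac-GlcNAc and untreated cells the difference was -0.31 (95% interval -0.52 to -0.11), which did not pass at an adjusted p = 0.0949. Each of these comparisons shares an arm with the one that chose the gene, so neither is independent of that choice. The order of the levels was therefore Ac-4-deoxy-GlcNAc, Ac-GlcNAc and untreated from low to high, with the last pair not separated by the test. The difference between the compounds stayed called whichever of the 9 arrays was left out (-0.84 to -0.74).

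ITGA6, the only alpha chain that ITGB4 pairs with, did not pass in any comparison. Its log2 level was 10.51, 10.60 and 10.46 with Ac-4-deoxy-GlcNAc, 10.66, 10.72 and 11.02 with Ac-GlcNAc, and 10.67, 10.58 and 10.92 in untreated cells. The Ac-4-deoxy-GlcNAc and untreated arrays overlapped, and the highest value in both other groups was on replicate 3. The difference from untreated was -0.20 with Ac-4-deoxy-GlcNAc (95% interval -0.45 to 0.06, adjusted p = 0.267) and 0.08 with Ac-GlcNAc (-0.17 to 0.34, adjusted p = 0.676). Between the compounds it was -0.28 (95% interval -0.53 to -0.02, adjusted p = 0.312), where all 3 analog arrays lay below all 3 Ac-GlcNAc arrays. On the reference annotation ITGB4 overlaps GALK1, a galactose kinase gene. The probe set of GALK1 itself differed by 0.15 between Ac-4-deoxy-GlcNAc and untreated cells (95% interval -0.14 to 0.43, adjusted p = 0.462).

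**Figure D1:**
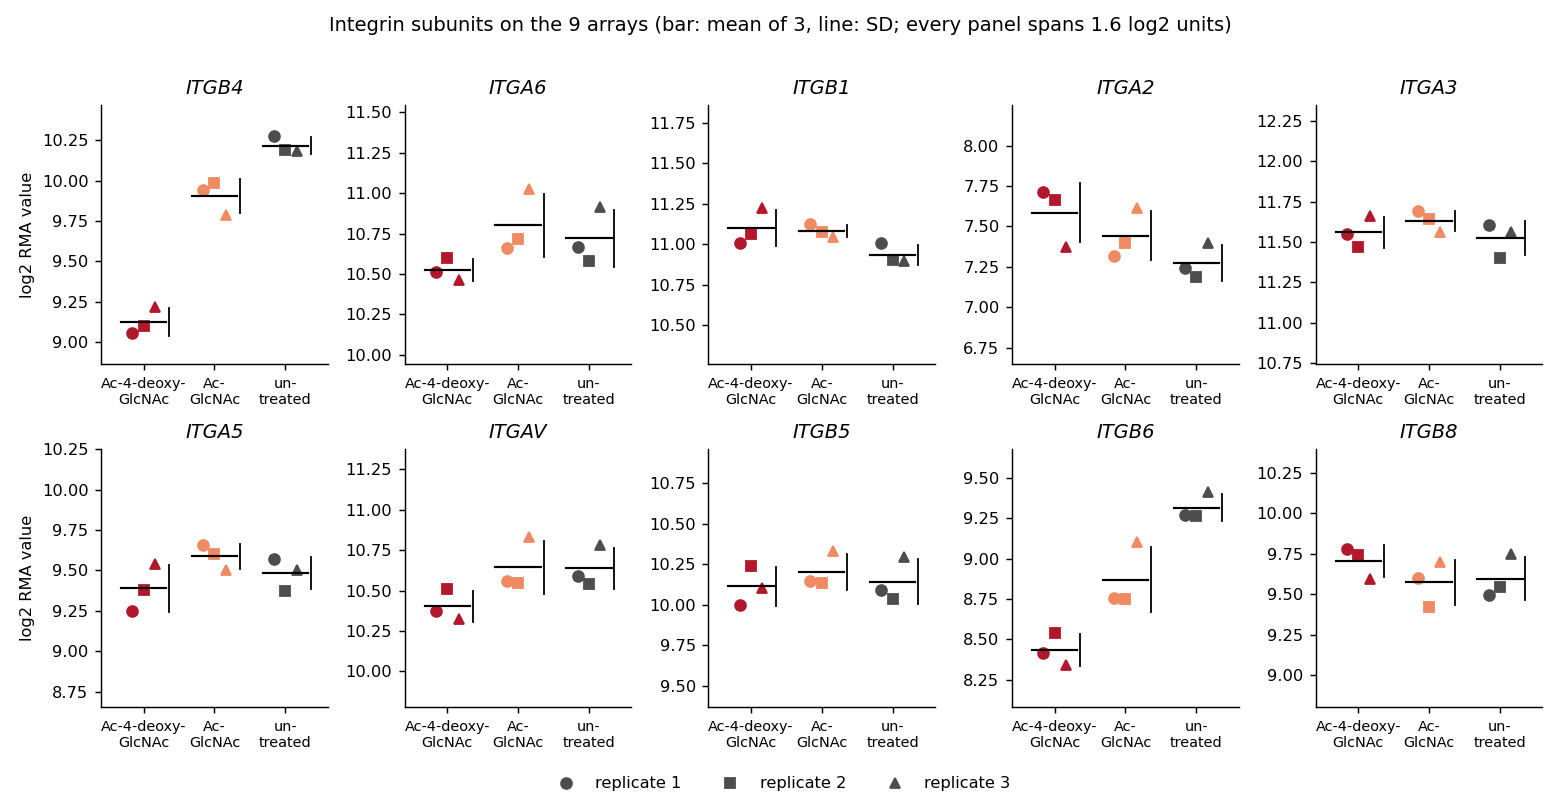
Log2 RMA values of the 10 integrin subunits on the 9 arrays, with the mean of 3 arrays as a bar, the SD as a vertical line and the replicate number as the marker shape. ITGB4 and ITGB6 are lowest with Ac-4-deoxy-GlcNAc, at 9.13 and 8.43 on average, and the other 8 panels, drawn over the same span, show smaller steps between groups.

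ITGB6 fell 1.84-fold with Ac-4-deoxy-GlcNAc. ITGB6 is the epithelial partner of ITGAV and a receptor for fibronectin and latent TGF-beta. For the 250 bases before a gene's start, the RefSeq promoter table (GRCh38.p14) holds 1 window for ITGB6 and 1 for ITGB8, the partner of ITGAV that has the same latent TGF-beta ligand and whose level did not pass in any comparison. Both are shown because they set the beta chain that fell beside the one that did not pass. ITGB6 lies at chr2:160200273-160200522 on the minus strand and ITGB8 at chr7:20330650-20330899 on the plus strand, and capitals mark every match to the motifs searched.
ITGB6: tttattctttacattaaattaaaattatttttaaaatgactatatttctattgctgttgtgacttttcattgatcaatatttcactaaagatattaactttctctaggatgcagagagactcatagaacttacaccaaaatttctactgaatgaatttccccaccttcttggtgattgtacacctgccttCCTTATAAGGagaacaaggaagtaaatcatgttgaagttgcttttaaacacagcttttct
ITGB8: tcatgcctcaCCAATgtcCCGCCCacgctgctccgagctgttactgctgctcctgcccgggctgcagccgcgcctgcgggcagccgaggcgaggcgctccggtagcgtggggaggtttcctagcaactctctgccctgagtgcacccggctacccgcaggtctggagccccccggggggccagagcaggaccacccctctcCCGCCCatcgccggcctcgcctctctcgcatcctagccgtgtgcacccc
The ITGB6 window had a GC content of 30%, against 71.2% for ITGB8 and a median of 58% over 34943 windows, and 1.53% of windows were below it. Searched on both strands were the TATA motif TATAAA, the CCAAT box, the GC box GGGCGG, the AP-1 motif TGANTCA, the E-box CACGTG, the SMAD motif CAGACA and the CArG box, the last of these added after the ITGB6 window had been read. ITGB6 held 1 CArG box, CCTTATAAGG, from 60 to 51 bases before the start and overlapping no other match, and 1.16% of windows hold one. ITGB8 held 2 GGGCGG and 1 CCAAT, which 42.5% and 32% of windows hold. A match is a description of the letters and not a site. Windows were found for 8 of the 10 genes, and not for ITGB4 and ITGA3.

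The log2 level of ITGB6 was 8.41, 8.54 and 8.35 with Ac-4-deoxy-GlcNAc, 8.76, 8.75 and 9.10 with Ac-GlcNAc, and 9.27, 9.26 and 9.41 in untreated cells. The 3 groups did not overlap, and again the Ac-GlcNAc arrays lay between the others. The difference of Ac-4-deoxy-GlcNAc from untreated was -0.88 (SE 0.11, limma adjusted p = 0.000808), and it was lower on 3 of 3 arrays. Of all probe sets, 60 (0.336%) were at least as far below 0. The call held in all 20 alternative fits (-0.95 to -0.83), and without untreated replicate 2 the difference was -0.91.

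With Ac-GlcNAc, ITGB6 differed from untreated by -0.45 (95% interval -0.69 to -0.20), which did not pass at an adjusted p = 0.0812. Between the analog and Ac-GlcNAc the difference was -0.44 (95% interval -0.68 to -0.20), which did not pass either (adjusted p = 0.061). Both sat near the threshold and turned on single arrays and on the settings of the fit. The first was called without untreated replicate 1 (adjusted p = 0.0474) and the second without untreated replicate 2 (adjusted p = 0.0455). Over the 9 fits with 1 array left out, their highest adjusted p were 0.228 and 0.229. On all 9 arrays, both were called with array weights or with probe sets below the 50th percentile of mean level left out. The second was also called with those below the 25th percentile left out, or with the trend and robust options of eBayes.

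ITGAV, the alpha chain of ITGB6, was 10.37, 10.51 and 10.33 with Ac-4-deoxy-GlcNAc, 10.56, 10.54 and 10.83 with Ac-GlcNAc, and 10.59, 10.54 and 10.78 in untreated cells. All 3 Ac-4-deoxy-GlcNAc arrays lay below the arrays of both other groups. The difference was -0.23 from untreated (95% interval -0.47 to 0.00079, adjusted p = 0.161) and -0.24 from Ac-GlcNAc (-0.48 to -0.0050, adjusted p = 0.355). Neither passed.

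ITGB5, which with ITGAV binds vitronectin, averaged 10.11 ± 0.12 with Ac-4-deoxy-GlcNAc, 10.20 ± 0.11 with Ac-GlcNAc and 10.14 ± 0.14 in untreated cells (SD, n = 3 each). Its 3 groups overlapped throughout. ITGB8 averaged 9.70 ± 0.10, 9.57 ± 0.14 and 9.60 ± 0.13 in the same order, and its groups overlapped too. For ITGB8 the difference of Ac-4-deoxy-GlcNAc from untreated was 0.11 (95% interval -0.12 to 0.34, adjusted p = 0.51), so a fall of the size seen for ITGB6 lay outside the interval. For ITGB5 it was -0.03 (95% interval -0.26 to 0.20, adjusted p = 0.875).

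**Figure D2:**
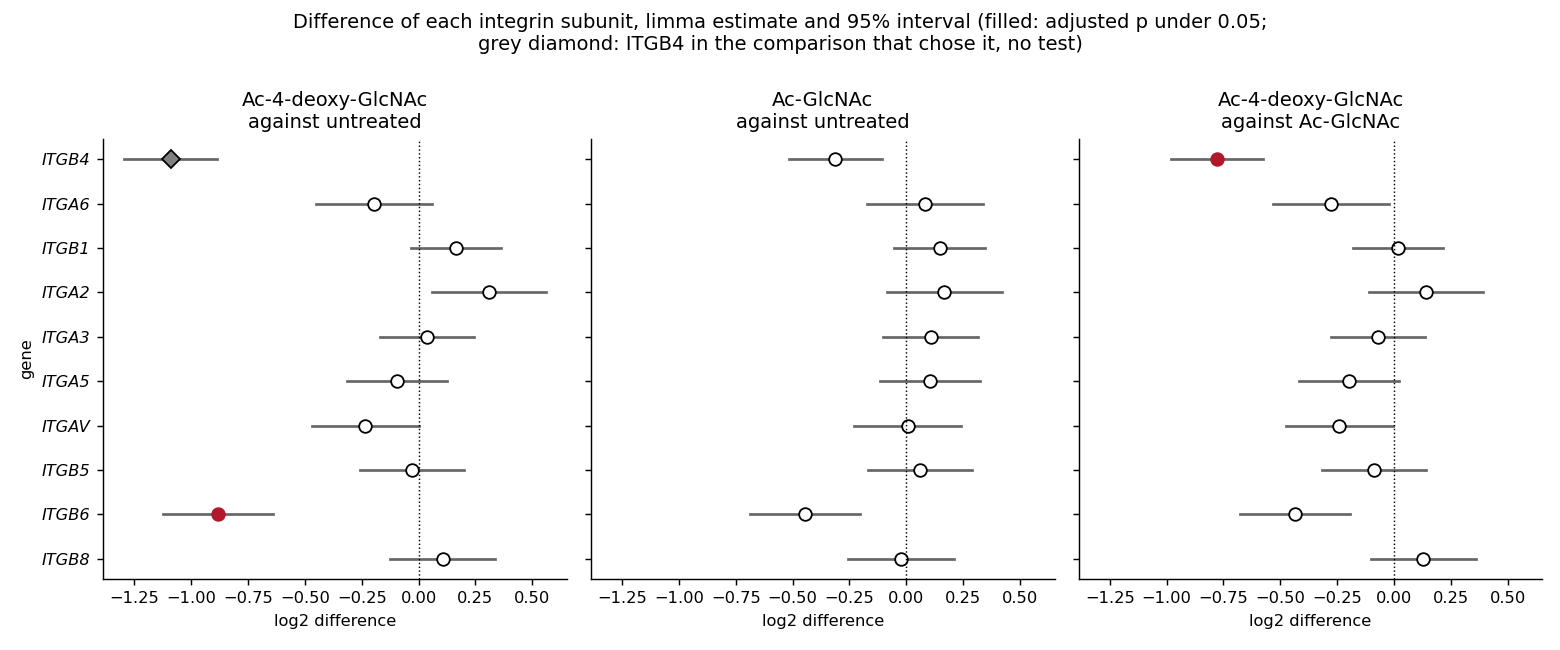
Log2 difference of each integrin subunit (points) with its 95% interval (lines) in the 3 comparisons, from the fit to all 9 arrays. Filled circles passed at an adjusted p under 0.05, and the grey diamond marks the ITGB4 difference of -1.09 that chose the gene and has no test. ITGB6, at -0.88, is the other subunit set apart in the left panel.

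Within the beta chain ITGB1 and its alpha chains no comparison passed. ITGB1 itself was 11.01, 11.06 and 11.22 with Ac-4-deoxy-GlcNAc, 11.12, 11.07 and 11.04 with Ac-GlcNAc, and 11.00, 10.90 and 10.90 in untreated cells. All 6 treated arrays lay above the 3 untreated arrays, by differences of means of 0.16 (95% interval -0.03 to 0.36, adjusted p = 0.234) and 0.15 (-0.05 to 0.35, adjusted p = 0.314), neither of which passed. ITGB1 also stands on a shared probe set with ADGRE3, which was not used for it.

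ITGA2, the collagen receptor chain, was 7.71, 7.66 and 7.37 with Ac-4-deoxy-GlcNAc, 7.32, 7.40 and 7.61 with Ac-GlcNAc, and 7.24, 7.18 and 7.40 in untreated cells. It had the highest difference from untreated among the 10 genes, 0.31 with Ac-4-deoxy-GlcNAc, but the groups overlapped and it did not pass (95% interval 0.06 to 0.56, adjusted p = 0.0974). ITGA3, a laminin receptor chain, averaged 11.56 ± 0.10 with Ac-4-deoxy-GlcNAc, 11.63 ± 0.06 with Ac-GlcNAc and 11.52 ± 0.11 in untreated cells (SD, n = 3 each). ITGA5, the fibronectin receptor chain, averaged 9.39 ± 0.15, 9.59 ± 0.08 and 9.48 ± 0.10 in the same order. Both had overlapping arrays in all 3 comparisons, and their adjusted p ran from 0.445 to 0.882.

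Setting the analog against untreated cells, 1 of the 9 subunits other than ITGB4 was called lower and 0 were called higher. Of all probe sets 11.0% were called in that comparison, 5.64% lower and 5.38% higher, so the share of the 9 is close to the background. Their median difference was -0.03, and that of all probe sets -0.05. The arrays did not overlap for 3 of the 9, beside 32.1% of all probe sets, and 2 of the 9 had an unadjusted p under 0.05, beside 31.2%. Between Ac-GlcNAc and untreated cells limma called 0 of the 10, beside 0.442% of all probe sets (0.207% higher and 0.235% lower). There the arrays did not overlap for 2 of the 9 other than ITGB4, beside 32.3%. Of these 9, 1 had an unadjusted p under 0.05, beside 26.4%. ITGB4 is left out of the counts over 9, since each comparison shares an arm with the one that chose it. With array weights ITGB6 was called for Ac-GlcNAc against untreated, and so was ITGB4, and in that fit 9.85% of all probe sets were called. Between the compounds ITGB4 was called lower and 0 of the 9 others were called. Of all probe sets 2.38% were called, 1.48% lower and 0.896% higher. The arrays of the compounds did not overlap for 3 of the 9, beside 21.2% of all probe sets. An unadjusted p under 0.05 was found for 3 of the 9, beside 13.6%. The 2 comparisons against untreated share their untreated arrays.

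Each beta chain was set against an alpha chain that it pairs with, as a ratio within an array. The 5 known pairs, in 3 comparisons, were chosen after the levels had been seen, and 3 against 3 arrays cannot give an exact two-sided permutation p below 0.1, so none of these comparisons could pass. The log2 ratio of ITGB6 to ITGAV was lower by 0.65 with Ac-4-deoxy-GlcNAc than in untreated cells and by 0.45 with Ac-GlcNAc than in untreated cells, without overlap (exact permutation p = 0.1 each, 0.136 after Benjamini-Hochberg adjustment over the 15 comparisons, those of ITGB4 included). The arrays of a group agreed closely in this ratio, with an SD of 0.010 with Ac-4-deoxy-GlcNAc, 0.041 with Ac-GlcNAc and 0.047 in untreated cells. Single levels of ITGB6 had SDs of 0.10, 0.20 and 0.09 in the same order. For ITGB8 the ratio to ITGAV was higher by 0.34 with Ac-4-deoxy-GlcNAc than in untreated cells, and for ITGB5 by 0.21 (exact permutation p = 0.1 each). The ratio of ITGB1 to ITGA6 was higher by 0.36 in that comparison, without overlap (exact permutation p = 0.1). With Ac-GlcNAc against untreated the arrays overlapped for ITGB1 to ITGA6, ITGB5 to ITGAV and ITGB8 to ITGAV, whose ratios differed by 0.07, 0.06 and -0.03 (exact permutation p = 0.5, 0.3 and 0.8). The log2 ratio of ITGB4 to ITGA6 was lower by 0.90 with Ac-4-deoxy-GlcNAc than in untreated cells. No p is given for this ratio, because it holds the difference that chose ITGB4, though it counts among the 15.

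**Figure D3:**
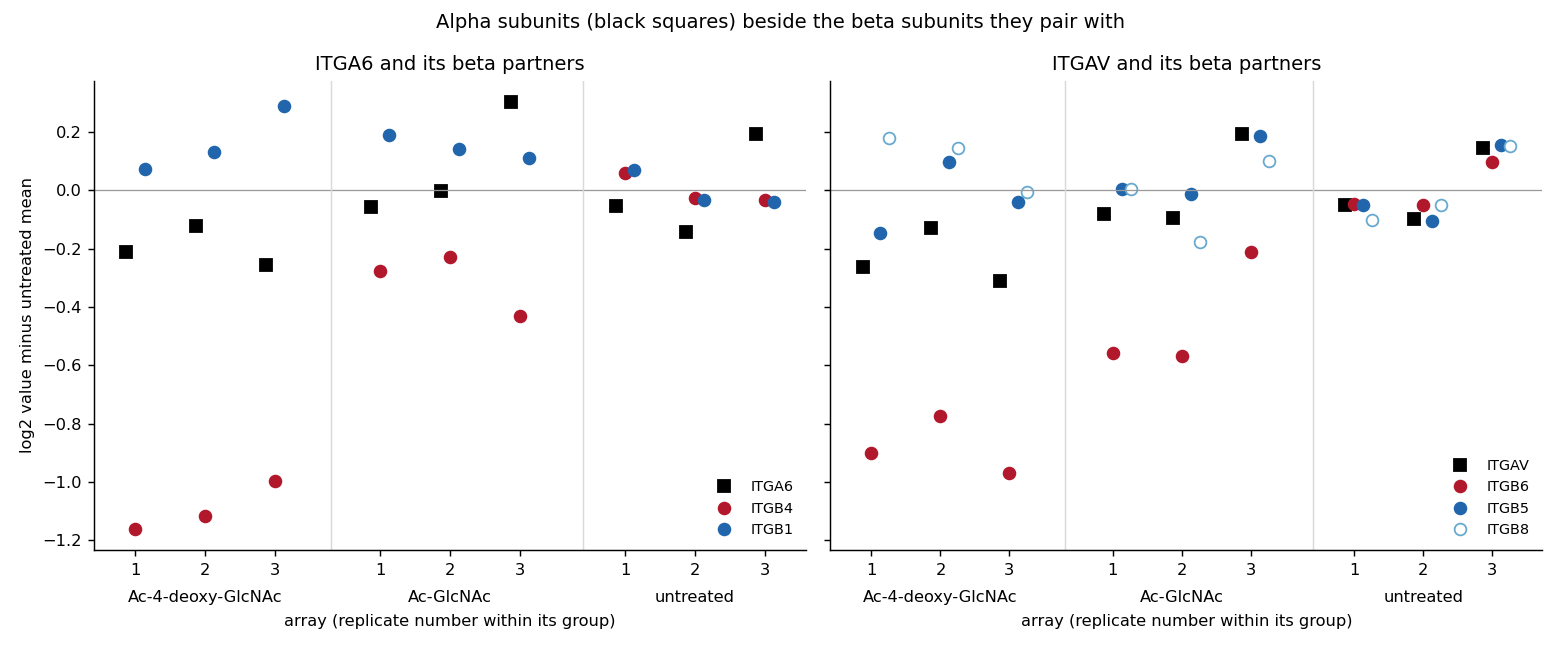
Log2 value minus the untreated mean on each array (vertical axis), for ITGA6 with ITGB4 and ITGB1 on the left and ITGAV with ITGB6, ITGB5 and ITGB8 on the right; arrays run along the horizontal axis by group and replicate, with small sideways offsets between genes. ITGB4 and ITGB6 lie well below their alpha chains on the Ac-4-deoxy-GlcNAc arrays, and ITGB6 moves up and down with ITGAV from array to array within a group.

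Within groups the subunits varied in 2 sets. ITGB4, ITGB1, ITGA3 and ITGA5 were each highest of their group on untreated replicate 1 and on Ac-4-deoxy-GlcNAc replicate 3, and lowest on Ac-GlcNAc replicate 3. ITGA6, ITGA2, ITGAV, ITGB5, ITGB6 and ITGB8 were each highest of their group on untreated replicate 3 and on Ac-GlcNAc replicate 3. The step was 0.23 above the group mean for ITGB6 and 0.22 for ITGA6 on Ac-GlcNAc replicate 3, while ITGB4 was at -0.12 there. These are single arrays, and the pattern was noticed after the values were seen. Of the 10 subunits, 7 were lowest of their group on untreated replicate 2, the array with the narrowest range of values. Without that array the difference of Ac-4-deoxy-GlcNAc from untreated was -1.10 for ITGB4.

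The other genes of integrin adhesion were taken as 11 lists with 112 measured genes. Setting the analog against untreated cells, 8 of these were called higher and 15 lower, 20.5% of the lists beside 11.0% of all probe sets. Of probe sets at or above the 50th percentile of mean level, fitted alone, 18.8% were called. Between Ac-GlcNAc and untreated cells limma called 0, beside 0.442% of all probe sets. Between the compounds 1 was called higher and 5 lower, 5.36% beside 2.38% of all probe sets and 5.68% of those at or above the 50th percentile. The shares were not matched to the levels of the list genes, so neither excess is read as a result about the lists. The lists were drawn up with earlier results of these arrays known, and COL1A1 and COL1A2 were among those results.

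The ligands came first. Of 8 measured laminin chains, LAMA4 and LAMB1 were called lower with Ac-4-deoxy-GlcNAc (-0.44 and -0.37, SE 0.11 and 0.10), and the list median was -0.20. Of all probe sets 5.64% were called lower. LAMA4 lay at the 30.5th percentile of level. Leaving out Ac-4-deoxy-GlcNAc replicate 1 or 3 ended both calls, untreated replicate 2 that of LAMA4, and untreated replicate 3 or Ac-4-deoxy-GlcNAc replicate 2 that of LAMB1. Of 17 ligands with an RGD motif or of the collagen and other matrix kinds, 3 were called lower and 1 higher. Of all probe sets 5.64% were called lower and 5.38% higher. COL1A1, a chain of type I collagen and so a ligand of ITGA2 with ITGB1, was 8.11, 8.12 and 8.26 with Ac-4-deoxy-GlcNAc, 8.80, 8.77 and 8.60 with Ac-GlcNAc, and 9.12, 9.07 and 9.07 in untreated cells. The analog arrays lay below both other groups, with a difference of -0.92 from untreated cells (SE 0.09, adjusted p = 0.000176) and of -0.56 from Ac-GlcNAc (adjusted p = 0.00781), a call that ended on leaving out Ac-GlcNAc replicate 1. COL1A2, the other chain, fell by 0.85 (SE 0.10), and FBLN5, a fibulin of elastic fibres with an RGD motif, rose by 0.61 (SE 0.12, adjusted p = 0.00891), a call lost with the SD over probe sets of each array as a covariate (adjusted p = 0.0791). CCN2, a matrix protein bound by several integrins, differed by -0.35 from untreated cells (adjusted p = 0.036), and by -0.40 from Ac-GlcNAc (adjusted p = 0.0461). Leaving out any of 6 of the 9 arrays ended the first call, and any array but untreated replicate 2 the second.

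Latent TGF-beta, the ligand of ITGAV with ITGB6 or ITGB8, is held in the matrix by LTBP1. LTBP1 was 8.32, 8.20 and 8.19 with Ac-4-deoxy-GlcNAc, 8.35, 8.42 and 8.62 with Ac-GlcNAc, and 8.65, 8.81 and 8.90 in untreated cells. It fell by 0.55 with Ac-4-deoxy-GlcNAc against untreated (SE 0.10, adjusted p = 0.00708), without overlap of the arrays. It was the 1 of 5 measured genes of that list to be called, beside 11.0% of all probe sets. The list median was -0.25.

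At the hemidesmosome, 4 partners were measured and 2 were called for the analog against untreated, in opposite directions, beside 11.0% of all probe sets. DST, whose epithelial form is a plakin that ties ITGB4 to keratin filaments and whose other forms serve other cells, was 9.97, 9.48 and 9.60 with Ac-4-deoxy-GlcNAc, 8.99, 9.06 and 9.19 with Ac-GlcNAc, and 8.94, 9.10 and 9.28 in untreated cells. It rose by 0.58 against untreated (SE 0.13, adjusted p = 0.016) and was higher by 0.61 than with Ac-GlcNAc (adjusted p = 0.0273), and the first call was lost when Ac-4-deoxy-GlcNAc replicate 1 was left out. The second was lost on leaving out any Ac-GlcNAc array or Ac-4-deoxy-GlcNAc replicate 1 or 3 (log2 0.46 to 0.71). KRT14, a basal epithelial keratin, fell by 0.96 (SE 0.24, adjusted p = 0.0265). Its untreated replicate 2 was at 7.44 and the other untreated arrays at 6.18 and 6.35, and leaving out Ac-4-deoxy-GlcNAc replicate 3 ended its call. Over the fits with 1 array left out, its difference ran from -1.20 to -0.56. It was -0.39 with the array SD as a covariate (adjusted p = 0.207). PLEC, the plakin plectin, differed by 0.07 (adjusted p = 0.669) and CD151, the tetraspanin bound to laminin-binding integrins, by -0.20 (adjusted p = 0.187), and neither passed.

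Of 11 tetraspanins, TSPAN1 fell by 0.50 in that comparison (SE 0.10, adjusted p = 0.00863) and CD9 was called higher by 0.42 (SE 0.11). These were 1 lower and 1 higher, beside 5.64% and 5.38% of all probe sets. The call of CD9 ended on leaving out untreated replicate 2 or 3, Ac-GlcNAc replicate 2, or Ac-4-deoxy-GlcNAc replicate 1 or 3. Of 9 genes that control integrin activation, RAP1GAP, which switches off the small GTPase RAP1 upstream of talin, fell by 0.78 (SE 0.12, adjusted p = 0.00251) and differed by -0.81 from its level with Ac-GlcNAc (adjusted p = 0.00404). APBB1IP, the adaptor that brings talin to active RAP1, rose by 0.61 against untreated (SE 0.12, adjusted p = 0.0083), a call lost with the array SD as a covariate (adjusted p = 0.0747). Against untreated these were the 1 lower and 1 higher of the 9, again beside 5.64% and 5.38%. The talins TLN1 and TLN2 themselves stood only on probe sets naming several genes.

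Of 19 focal adhesion adaptors, the analog comparison with untreated cells called 5 lower and 1 higher, beside 5.64% and 5.38% of all probe sets. The 4 with the largest differences were 3 tensins, adaptors that link beta chain tails to actin, and LIMS2, an adaptor of the integrin-linked kinase. TNS1 fell by 0.58 (SE 0.10, adjusted p = 0.00427) and TNS4, a tensin without the actin-binding part, by 0.48 (SE 0.08, adjusted p = 0.00503), and both calls held whichever of the 9 arrays was left out. Their mean levels were low, at the 44th and 31.5th percentile. TNS4 also differed by -0.49 from its level with Ac-GlcNAc (adjusted p = 0.00943), a call that ended on leaving out Ac-GlcNAc replicate 1 or 2. TNS2 differed by -0.41 from untreated (adjusted p = 0.0366) and stayed called only on leaving out untreated replicate 2 or Ac-GlcNAc replicate 3. Between the compounds TNS2 differed by -0.51 (adjusted p = 0.0311), a call that ended on leaving out any Ac-GlcNAc or any Ac-4-deoxy-GlcNAc array. LIMS2 differed by -0.42 from untreated (SE 0.10, adjusted p = 0.0226), and leaving out untreated replicate 2 or 3 or Ac-4-deoxy-GlcNAc replicate 1 or 3 ended its call.

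PTK2, the focal adhesion kinase, was the 1 of 12 signalling genes called, higher by 0.40 (SE 0.10, adjusted p = 0.0274), a call that ended on leaving out untreated replicate 2 or 3 or Ac-4-deoxy-GlcNAc replicate 1 or 3. RAB11FIP1, a recycling adaptor, was the 1 of 12 trafficking genes called, higher by 0.44 (SE 0.10, adjusted p = 0.0185), and leaving out Ac-4-deoxy-GlcNAc replicate 1 or 3 ended its call. DOK1, which competes with talin for beta chain tails, was the 1 of 4 inactivators called, with a difference of -0.46 (adjusted p = 0.016), lost on leaving out Ac-4-deoxy-GlcNAc replicate 3. Its mean level lay at the 38th percentile. Of 11 other integrin subunits, ITGB2, the beta chain of leukocytes, was called higher by 0.38 from a low level (6.27 with Ac-4-deoxy-GlcNAc against 5.88 in untreated cells, adjusted p = 0.0232). Its call ended on leaving out untreated replicate 3 or Ac-4-deoxy-GlcNAc replicate 3. These counts of 1 of 12, 1 of 12, 1 of 4 and 1 of 11 stand beside 11.0% of all probe sets. A single call is not read as a result about its list. PTPRC, the defining leukocyte marker, lay at the 9.51th percentile of level.

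**Figure D4:**
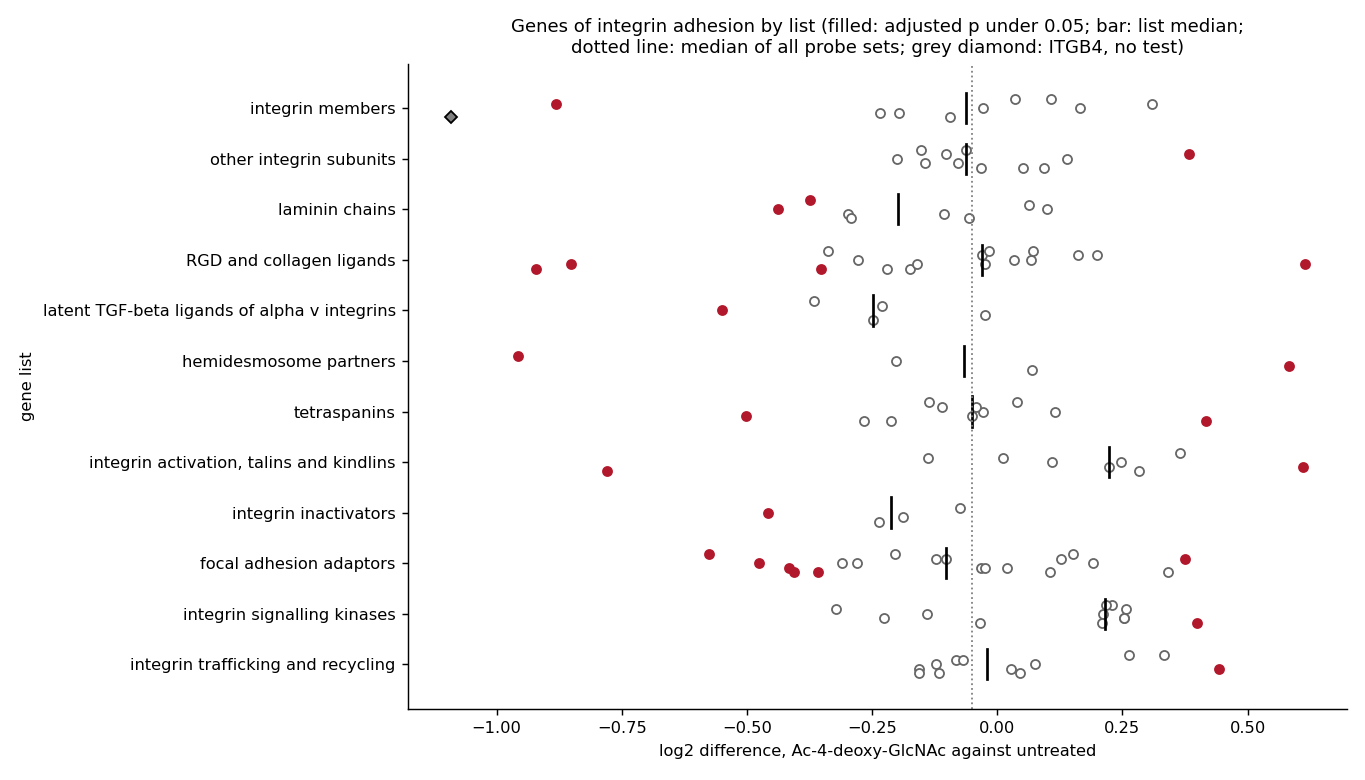
Log2 difference of Ac-4-deoxy-GlcNAc against untreated (horizontal axis) for each measured gene of the integrin subunits and the 11 lists (rows, with small vertical offsets); filled circles passed at an adjusted p under 0.05, black bars are list medians, the dotted line is the median of all probe sets at -0.05, and the grey diamond is ITGB4. Each list of the 12 held at least 1 filled circle, and calls to both sides occur in the tetraspanin, hemidesmosome, activation, adaptor and matrix ligand lists.

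The genes whose levels followed ITGB4 most closely were sought by Pearson correlation over the 9 arrays. Of 266 candidate genes with a mean level at or above the median and a range of at least 1 log2 unit, the 6 highest were COL1A1 (r = 0.99), FOXS1 (0.99), AMTN (0.98), PMEPA1 (0.97), VSNL1 (0.96) and NMUR2 (0.96). The 9 arrays fall into 3 groups and share them, so these values mainly describe the same order of groups and carry no p. After group means were removed, r with ITGB4 was 0.94 for COL1A1, 0.86 for FOXS1 and 0.80 for PMEPA1. It was 0.17 for AMTN, -0.44 for VSNL1 and -0.84 for NMUR2. The correlation that chose these genes also holds such deviations. Among subunits not called in any comparison, r was then 0.80 for ITGA5, 0.79 for ITGB1 and 0.66 for ITGA3. For ITGA6, ITGA2, ITGAV, ITGB5 and ITGB8 it lay between -0.84 and -0.40. A high value is therefore not particular to the 6 genes. ITGB6 was 25th of the 266 candidates with r = 0.88 over the arrays, and -0.81 after group means were removed. FOXS1 is a forkhead transcription factor, PMEPA1 a TGF-beta target that restrains the pathway, AMTN an enamel protein, VSNL1 a neuronal calcium sensor and NMUR2 a neuromedin U receptor. All 6 were chosen for likeness to ITGB4, so their own differences are no further evidence.

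COL1A1 is also a fibroblast marker. Of the 7 fibroblast markers, 3 were called lower with the analog against untreated (COL1A1, COL1A2 and LUM), beside 5.64% of all probe sets. Between Ac-GlcNAc and untreated cells 0 of 7 were called, beside 0.442% of all probe sets. Averaged over the 7 markers, the arrays lay at 5.83 to 5.85 with Ac-4-deoxy-GlcNAc, at 5.90 to 5.99 with Ac-GlcNAc and at 6.16 to 6.31 in untreated cells. The fibroblast markers THY1, at the 22.5th percentile, and PDGFRB, at the 39th, differed by 0.18 and -0.01 (adjusted p = 0.242 and 0.964), and COL3A1 and DCN by -0.31 each (adjusted p = 0.101 and 0.152), none of which passed. The part of these markers in the ITGB4 difference was not tested.

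**Figure D5:**
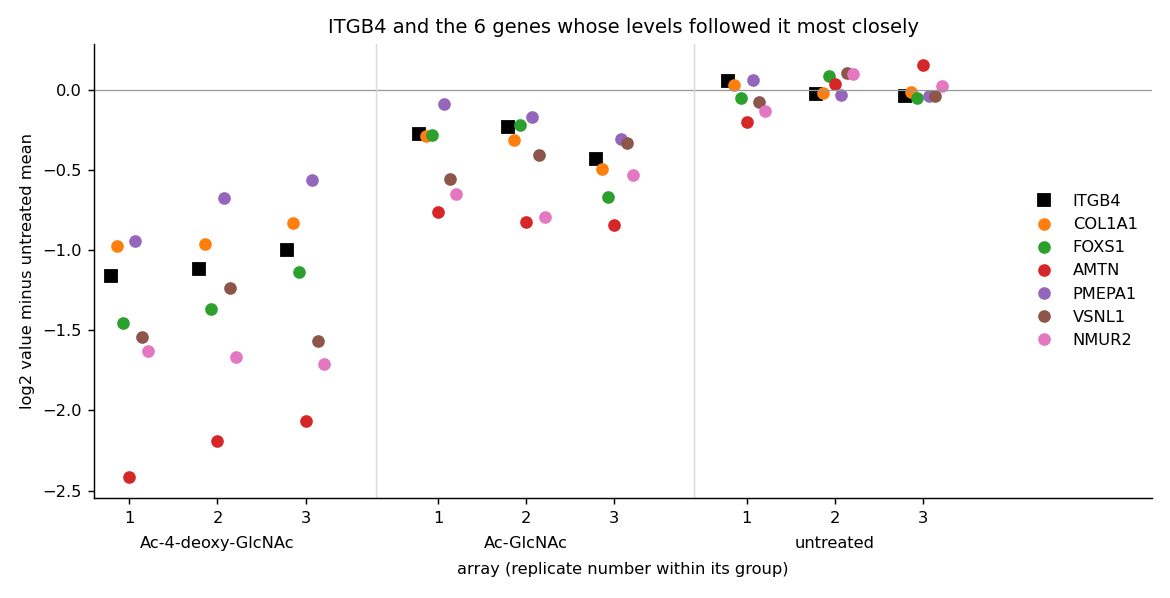
Log2 value minus the untreated mean on each of the 9 arrays (vertical axis; arrays by group and replicate along the horizontal axis, with small sideways offsets) for ITGB4 (black squares) and the 6 genes with the highest correlation to it. All 7 are lowest with Ac-4-deoxy-GlcNAc and intermediate with Ac-GlcNAc, and AMTN has the widest span.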

How the data were processed

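Total RNA of 9 separate culture flasks was hybridised to 9 exon arrays. Per the submitters' processing notes, the authors made the log2 values with RMA in Partek on hg18; versions and filters are not given in the sources used here. The deposited log2 table has 1 value per probe set and array. No scanner file was used here, so signal over background is unknown, and no batch is named in the labels. Precision is limited by the number of arrays, and a log2 difference between 2 groups had a median SE of 0.110.

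Of 17859 probe sets, 14413 had 1 gene in the platform annotation, 2405 several and 1041 none, and those with several were given no gene name, except where they are described as shared. Symbols were updated by gene identifier through RefSeq (GRCh38.p14; 14385 found). With limma 3.58.1 (R 4.3.3; lmFit, eBayes), all 9 arrays entered 1 fit with group as its term and 6 residual degrees of freedom. Tests were two-sided, p-values were adjusted by Benjamini-Hochberg over the 17859 probe sets, and an adjusted p under 0.05 was called. The fit was tested on simulated arrays. Per list and comparison up to 4 called genes were named, by size of the difference. PLEC and CD151 were named outside that rule, after their values were known. The subunits, lists and alternatives were chosen with earlier results of these data known. Promoter windows came from RefSeq.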

Additional observations from a re-analysis of the deposited data

How the results depend on the processing

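In the analog cells ITGB6 was called lower than in untreated cells under each of the 20 alternatives, at -0.95 to -0.83. ITGB4 stood at -1.16 to -1.06, and its calls in that comparison are not counted, since that comparison chose it. Leaving out 1 array at a time, ITGB6 was called throughout in that comparison, and no other subunit was called in any of those fits, the chosen ITGB4 aside. Of all probe sets, 3.38% to 17.2% were called in those fits. For Ac-GlcNAc against untreated 0 to 1 subunits were called, the 1 being ITGB6, beside 0.0224% to 7.61% of probe sets. Between the compounds 1 to 2 were called, ITGB4 in each fit and ITGB6 in 1, beside 0.79% to 3.69%. Both comparisons share an arm with the one that chose ITGB4. For Ac-GlcNAc against untreated, ITGB6 was called with the filter at the 50th percentile of mean level, beside 1.72% of probe sets in that fit. With array weights ITGB4 and ITGB6 were called, beside 9.85%. Between the compounds ITGB6 was called in addition to ITGB4 with the 25th percentile filter (beside 4.6% of probe sets), the 50th (5.68%), trend and robust options (2.94%) or array weights (6.65%). Of the 21 list genes named as called for the analog against untreated, 11 stayed called on the 6 compared arrays alone, 8 with the array SD as a covariate and 12 with Ac-4-deoxy-GlcNAc replicate 1 and untreated replicate 2 both left out. KRT14 was also lost with trend and robust options, and CD9 with array weights. Of the 6 between the compounds, CCN2 was lost with cyclic loess, quantile normalization, median centring and the replicate block, DST with the SD covariate, and both with those 2 arrays left out.

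On the 6 compared arrays alone or with the array SD as a covariate, 0 of the other subunits were called for the analog against untreated. The 50th percentile filter also gave 0, but ITGB2, at the 42.9th percentile of level, was not tested there. With 1 array left out, 0 to 1 of these subunits were called. For Ac-GlcNAc against untreated 1 was called with array weights, and 0 to 0 with 1 array left out. Between the compounds 1 was called with cyclic loess, quantile normalization, median centring, the 25th percentile filter, the 6 arrays alone or the SD covariate, 3 with array weights, 2 with Ac-4-deoxy-GlcNAc replicate 1 and untreated replicate 2 both left out, and 0 to 2 with 1 array left out.

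Probe sets called for the analog against untreated numbered 818 on the 6 arrays alone, 596 with the SD covariate, 730 with both of those arrays left out, and 604 to 3076 with 1 array left out. For Ac-GlcNAc against untreated they numbered 47 with cyclic loess, 36 with quantile normalization, 32 with median centring, 154 with the 50th percentile filter, 141 with trend and robust options, 1760 with array weights, 48 on the 6 arrays alone, 2 with the SD covariate, 49 with both arrays left out, and 4 to 1359 with 1 left out. Between the compounds they numbered 1187 with array weights and 141 to 659 with 1 array left out. With the replicate number as a block, 324 probe sets were called for Ac-GlcNAc against untreated, and 79 without it. For the analog against untreated 2207 were called with the block and 1968 without. With the block ITGB6 stayed called for the analog against untreated, beside 12.4% of probe sets. For Ac-GlcNAc against untreated 0 of the 10 were called, beside 1.81%. Between the compounds ITGB4 alone was called, beside 2.42%. These calls were the same without the block. Deviations of same-numbered arrays correlated at r from -0.24 to 0.37, highest for replicate 3 of untreated and Ac-GlcNAc. The labels do not say whether the numbers pair flasks, and these values do not settle it.

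The sign of some uncalled differences turned. For ITGA3, analog against untreated, it was -0.025 with cyclic loess, -0.033 with array weights, -0.057 with the SD covariate and -0.020 with both arrays left out, and -0.024 to 0.081 with 1 left out; ITGB5 ran from -0.091 to 0.049. For Ac-GlcNAc against untreated, cyclic loess gave -0.035 for ITGA6, -0.0054 for ITGA3, -0.014 for ITGA5, -0.11 for ITGAV and -0.056 for ITGB5. Quantile normalization gave -0.038, -0.0086, -0.019, -0.11 and -0.059 for the same genes, and the SD covariate -0.084, -0.026, -0.057, -0.11 and -0.087. Array weights gave -0.10 for ITGA6, -0.13 for ITGAV and -0.064 for ITGB5, median centring -0.020 for ITGAV, and leaving out both arrays -0.043 for ITGAV. With 1 array left out, ITGA6 ran from -0.030 to 0.18, ITGAV from -0.087 to 0.079, ITGB5 from -0.0024 to 0.14 and ITGB8 from -0.085 to 0.053. Between the compounds ITGB1 was -0.013 with array weights and ran from -0.044 to 0.063 with 1 left out, and ITGA3 was 0.014 with quantile normalization. The cause was not tested. Other probe sets of the same gene could not be tried, since each subunit had 1.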

Other observations

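Some subunits stand on probe sets that name several genes, so their values cannot be credited to the integrin. The probe set of ITGA1, a collagen receptor chain, and PELO, a ribosome rescue factor, averaged 8.92 ± 0.07 with Ac-4-deoxy-GlcNAc, 9.23 ± 0.22 with Ac-GlcNAc and 9.20 ± 0.15 in untreated cells (SD, n = 3 each). It differed by -0.28 between the analog and untreated cells (limma adjusted p = 0.132) and did not pass. The low probe set of ADGRE3 and ITGB1, with a mean of 4.45, differed by -0.19 in that comparison (adjusted p = 0.261), while the probe set of ITGB1 alone differed by 0.16, and neither passed.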
